A study of Mus musculus with 16 samples.

Results

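The 10 genes described here are Trp53, which encodes the tumour suppressor p53, and 9 genes that p53 is known to switch on: Mdm2, Cdkn1a, Ccng1, Bax, Bbc3, Phlda3, Trp53inp1, Zmat3 and Sesn1. They were taken by symbol from a count table of 22392 genes, each as the transcript with the largest total over all libraries. The cells were Hepa1-6, a mouse hepatoma line, either wild type (WT) or with exon 5 of Eef1d removed. Eef1d encodes a subunit of the complex that reloads translation elongation factor 1A. Exon 5 was cut out with Cas9 and a pair of guides, pS1 and pS4 for clones #1 and #2 and pS2 and pS4 for clone #3, followed by puromycin selection and limiting dilution. The 3 lines, called KO1, KO2 and KO3 below, are therefore single clones, and no source used here says that WT cells passed through the same steps. Ribosome-protected fragments (footprints, Ribo-seq) and RNA (RNA-seq of the same lysates) were counted in 2 replicates of each line, 16 libraries in all. Editing and cloning cannot be told apart from loss of exon 5 in any comparison of 1 clone with WT.

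p53 is a transcription factor held at a low level by Mdm2, a ubiquitin ligase that is itself a p53 target and so closes a negative feedback loop. DNA breaks and other stresses release p53, which then raises the RNA of Cdkn1a, an inhibitor of cyclin-dependent kinases that arrests the cell cycle, and of genes that promote apoptosis, such as Bax and Bbc3. In many cells p53 output is therefore read from the RNA of its targets rather than from Trp53 RNA, since p53 itself is mainly controlled as a protein.

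p53 binds pairs of a 10-base half-site. The 250 bases before the transcription start were available from RefSeq (GRCm38.p6) for 8 of the 10 genes, as 12 promoters, and were searched for the p53 half-site, which reads the same on both strands. Trp53inp1 and Zmat3 had no entry. A half-site was found in 6 of the 12 promoters, those of 6 genes, against 7.13% of all 32851 promoters. A pair at most 13 bases apart was found in 1 promoter of Cdkn1a alone, against 0.0639%. A match is a description of the letters and not a bound site. The sequences of Trp53 and of 3 targets with lower RNA and footprints in KO2 are printed for that reason, 5′ to 3′ on the gene's own strand, with half-sites in capitals. They are chr11:69580109-69580358 (+) for Trp53, chr10:117710759-117711008 (-) for Mdm2, chr17:29090729-29090978 (+) for Cdkn1a and chr11:40755287-40755536 (-) for Ccng1.
Trp53: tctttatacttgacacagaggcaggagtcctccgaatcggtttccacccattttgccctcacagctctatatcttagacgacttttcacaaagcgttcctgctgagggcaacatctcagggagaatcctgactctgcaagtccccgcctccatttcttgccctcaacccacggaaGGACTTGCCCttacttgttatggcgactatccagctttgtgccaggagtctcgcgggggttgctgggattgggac
Mdm2: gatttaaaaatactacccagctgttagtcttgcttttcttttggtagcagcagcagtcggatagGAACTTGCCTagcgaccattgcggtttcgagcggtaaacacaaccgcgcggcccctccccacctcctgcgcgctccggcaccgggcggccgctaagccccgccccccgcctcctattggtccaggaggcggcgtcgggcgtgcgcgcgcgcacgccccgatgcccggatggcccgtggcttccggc
Cdkn1a: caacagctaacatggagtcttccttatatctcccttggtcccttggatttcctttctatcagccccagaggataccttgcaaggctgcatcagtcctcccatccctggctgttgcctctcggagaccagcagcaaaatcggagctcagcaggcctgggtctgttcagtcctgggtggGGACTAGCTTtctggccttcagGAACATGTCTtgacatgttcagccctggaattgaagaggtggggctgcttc
Ccng1: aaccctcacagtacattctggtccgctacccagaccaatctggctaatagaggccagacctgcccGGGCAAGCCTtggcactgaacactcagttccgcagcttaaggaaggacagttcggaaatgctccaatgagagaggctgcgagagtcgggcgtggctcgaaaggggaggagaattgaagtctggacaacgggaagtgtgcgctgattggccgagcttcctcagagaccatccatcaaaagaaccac
In the printed Cdkn1a promoter the half-sites began 73 and 51 bases before the transcription start, at -73 and -51. The other Cdkn1a promoter (chr17:29093519-29093768) held none. The half-site of Trp53 began at -75, that of Ccng1 at -185 and that of Mdm2 at -186. Bax (-201) and 1 promoter of Sesn1 (-173) also held 1 half-site each. The other Sesn1 promoter and those of Bbc3 and Phlda3 held none in this window.

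Depth, over 1 transcript per gene, was 10493029 to 12946815 counts in the RNA-seq libraries and 1138944 to 4886757 in the Ribo-seq libraries. KO1 held both the smallest (replicate 2) and the largest (replicate 1) Ribo-seq library, which differed 4.29 times. Counts of an Eef1d transcript with exon 5 were 116% of those of a transcript without it in both WT RNA-seq libraries and 89.8% to 92.6% in the 6 clone libraries, since a read that fits both was counted on both. This separated WT from the clones. Hepatocyte markers were present, with Alb at 134 to 941 TPM (transcript level scaled to a fixed library total), although Apoa1 and Ttr were at or near 0. Their summed level was 1165 to 1251 TPM in WT cells, 440 to 444 in KO1, 865 to 938 in KO2 and 1704 to 1798 in KO3. The markers did not move together in KO3. There edgeR called 2 of the 5 tested higher in RNA (Alb the most) and 3 lower (Fgb the most), with a median log2 change of -0.36. Of all genes, 23.1% were called higher and 22.3% lower in KO3. In KO1 all 5 tested markers were called lower (median -1.51), as were 24.6% of all genes. In KO2 4 of the 5 were called lower and 0 higher (median -0.33), beside 8.84% of all genes lower and 11.6% higher. The part of these differences in the results on the p53 pathway was not tested. Immune (2.17 to 7.48 TPM) and endothelial (up to 1.03 TPM) markers stayed low, with Cd3e at 0 in all RNA-seq libraries. Of the fibroblast markers only Dcn was high (638 to 949 TPM), and Krt7 carried most of the cholangiocyte sum in KO3 (297 to 313 TPM).

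All 10 genes were detected in every library of WT cells, at very different levels. Per unit of length, WT RNA was highest for Ccng1 (372 and 381 TPM in the 2 replicates), an atypical cyclin that p53 induces. It was followed by Bax (mean of 316 TPM), Phlda3 (266), Trp53 (246), Mdm2 (193), Cdkn1a (177) and Zmat3 (116). Trp53inp1 (44.8), Bbc3 (11.6) and Sesn1 (3.60) were the lowest. The replicate ranges of neighbours in this order did not overlap. Ccng1 to Zmat3 lay at percentiles 95.9 to 86.0 of the 9634 genes with at least 10 counts in each WT library. Bbc3 missed that minimum for footprints in WT replicate 2. Bbc3 and Sesn1 rested on 2 to 36 footprints per library, and statements on their translation are limited accordingly.

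The order changed when footprints were counted. Trp53 had the highest footprint density (312 and 318 TPM), then Cdkn1a (245 and 250.4 TPM), while Ccng1 dropped to 56.8 and 84.3 TPM. Translation efficiency (TE), the log2 ratio of footprint to RNA CPM (counts scaled to a fixed library total) of 1 lysate, was accordingly highest for Cdkn1a at 0.77 and 0.80. This placed it at percentile 92.5 of all genes compared. Trp53 followed with 0.65 and 0.66 (percentile 89.1). Ccng1 stood at the other end with -2.43 and -1.87 (percentile 2.72), and Bax was low too, at -1.003 and -0.93 (percentile 17.8). TE is scaled within each assay, so that 0 is close to the middle of the genes and no absolute rate. Thus RNA of Ccng1 was over 2 times that of Cdkn1a per unit of length, but carried fewer footprints.

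**Figure D1:**
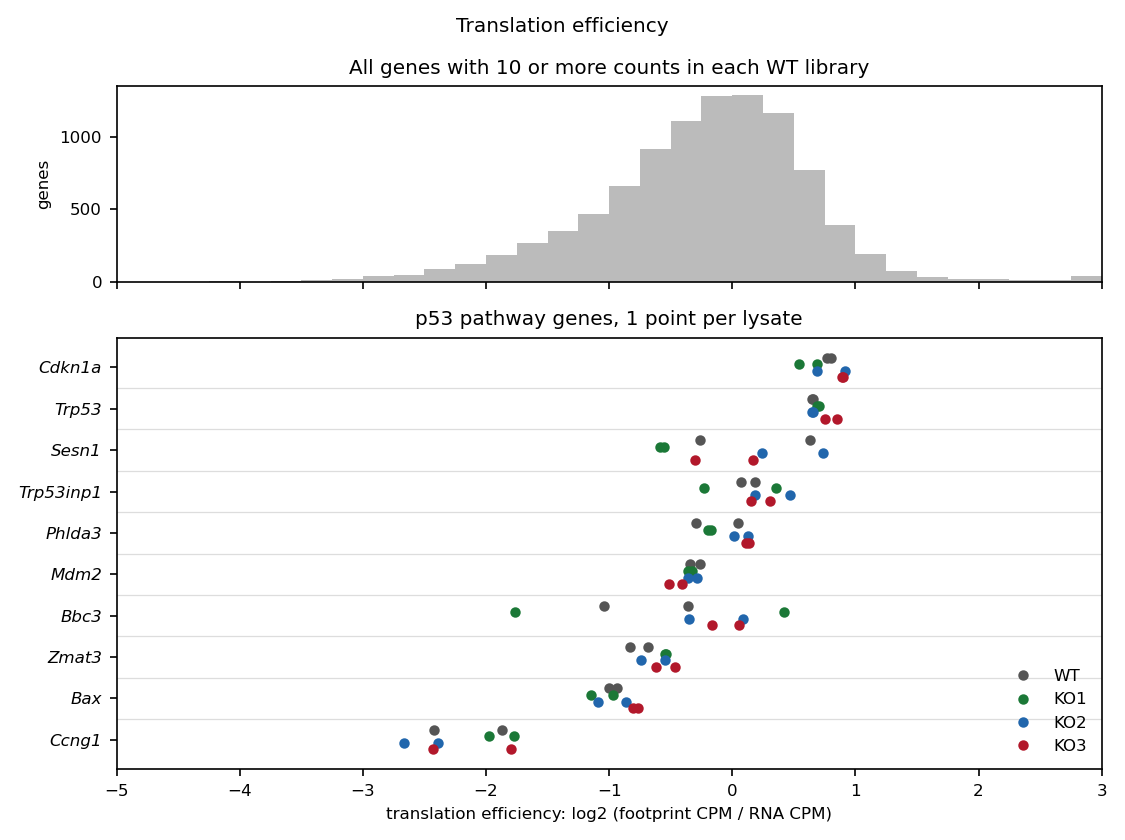
Translation efficiency of the 10 genes, as log2 of footprint CPM over RNA CPM. The upper histogram counts the 9634 genes with at least 10 counts in each WT library by their mean WT value (values outside the axis are in the end bins), and the lower panel shows each gene with 1 point per lysate, coloured by line. Ccng1 lay at the lower end in all 4 lines, and Cdkn1a and Trp53 lay at the upper end, where single lysates of Sesn1 also reached.

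Trp53 itself (chr11:69580359-69591873, + strand, 11 exons of which 10 are coding) changed little. Its RNA was 305 and 296 CPM in WT cells, 298 and 276 in KO1, 269 and 259 in KO3 and 302 and 289 in KO2. KO3 was the only clone with both libraries below both WT libraries. Against WT, the log2 change was -0.19 (SE 0.05, adjusted p = 0.00273, edgeR) in KO3, or 0.877 times WT, while KO1 (-0.07, SE 0.05) and KO2 (-0.02, SE 0.06) did not pass the test. The KO3 call was lost without WT replicate 1 (adjusted p = 0.075, -0.17). Footprints of Trp53 were 477 and 468 CPM in WT cells, 474 and 456 in KO2, 454 and 466 in KO3 and 484 and 445 in KO1. None of the 3 changes passed, and the 95% intervals were -0.16 to 0.12 in KO1, -0.15 to 0.11 in KO2 and -0.18 to 0.07 in KO3.

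The RNA of the 10 genes was then compared with WT in each clone. The 3 comparisons share the WT libraries. They answer whether the RNA of each gene differed from WT in a clone, not whether exon 5 did so. Activity of p53 itself was not measured. In KO1, 5 of the 10 genes were called, 2 higher and 3 lower, where 46.7% of 11515 genes were called, 22.1% higher and 24.6% lower. In KO2, 5 were called and all were lower, where 20.4% of all genes were called and 8.84% were called lower. The 10 log2 changes in KO2 were all below 0, but those of Trp53, Sesn1 and Bbc3 lay within 1 SE of 0. Without 1 replicate these reached up to 0.01, 0.13 and 0.18. In KO3, 6 were called, 1 higher and 5 lower, where 45.4% of all genes were called, 23.1% higher and 22.3% lower. Replicates of the clone and of WT did not overlap for 8 genes in KO1 (71.9% of all genes), 7 in KO2 (57.8%) and 9 in KO3 (70.7%). KO2 had the lowest median change of the 10 genes (-0.23), followed by KO3 (-0.15) and KO1 (-0.09), beside 0.00 for all genes tested in each clone. In these bulk libraries, a lower level in every cell and a smaller share of cells with the RNA cannot be told apart.

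**Figure D2:**
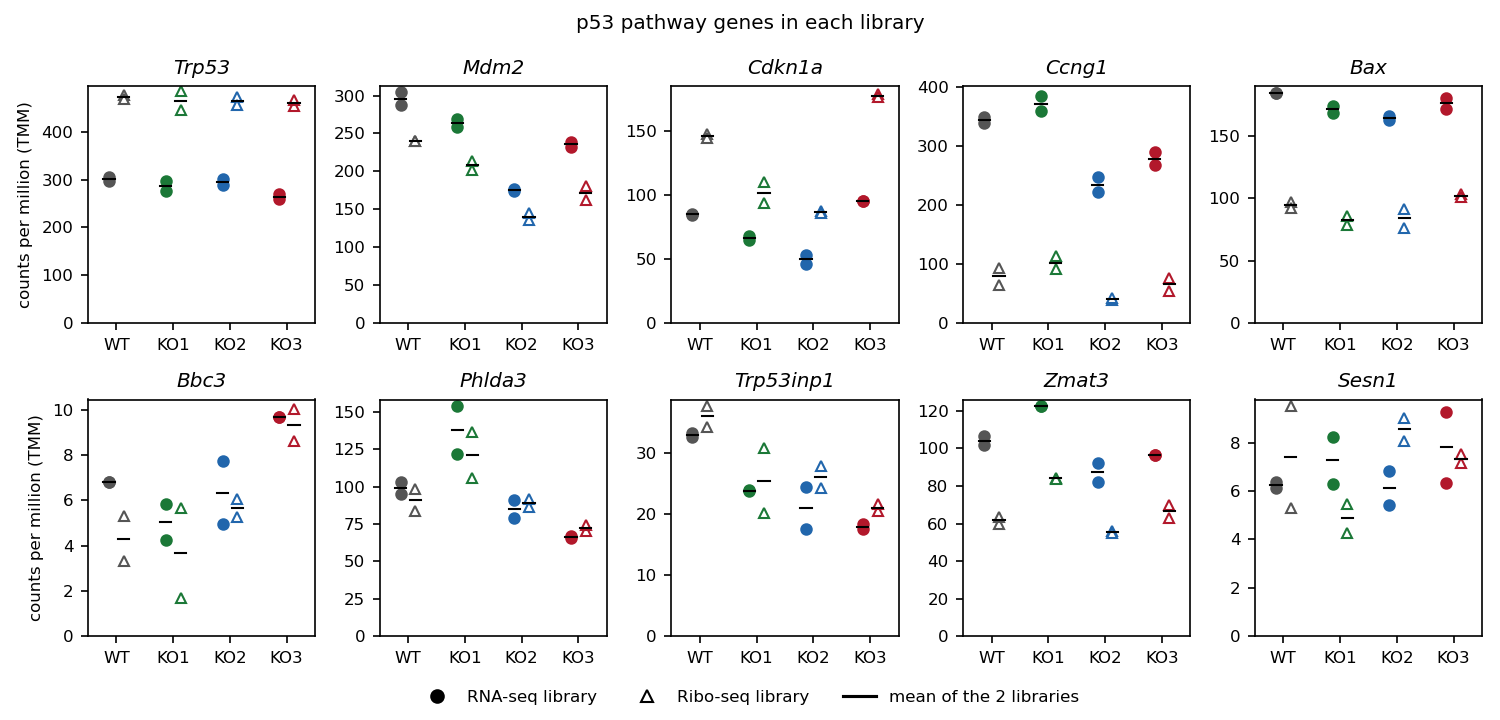
Level of each gene in every library, in CPM scaled by TMM within each assay, against the line. Filled circles are RNA-seq libraries, open triangles Ribo-seq libraries and bars the mean of the 2 replicates. Mdm2 and Ccng1 were lowest in KO2 in both assays, Cdkn1a lowest in KO2 and highest in KO3, and Trp53 nearly level.

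Mdm2, the ubiquitin ligase of the feedback loop (chr10:117688875-117710758, - strand, 12 exons of which 10 are coding), was lower in every clone. WT libraries held 304 and 288 CPM of its RNA, KO1 268 and 258, KO3 232 and 239, and KO2 175 and 177. None of the clone ranges overlapped the WT range. KO2 had the largest log2 change (-0.75, SE 0.06, adjusted p = 1.92e-09), then KO3 (-0.33, SE 0.06, adjusted p = 4.5e-07) and KO1 (-0.17, SE 0.05, adjusted p = 0.00678). KO2 therefore kept 0.595 times the WT level, and the KO1 call was lost without WT replicate 1 (-0.13, adjusted p = 0.169). Footprints were 239.9 and 240.0 CPM in WT cells, 214 and 202 in KO1, 163 and 180.0 in KO3 and 136 and 144 in KO2. They fell by 0.78 in KO2 (SE 0.08, adjusted p = 1.14e-08) and by 0.50 in KO3 (SE 0.07, adjusted p = 6.49e-07) on the log2 scale. In KO1 the footprint change of -0.20 (SE 0.08, adjusted p = 0.0506) missed the threshold.

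Cdkn1a (chr17:29090976-29100727, + strand, 3 exons of which 2 are coding), the arrest gene with a pair of half-sites in 1 of its promoters, split the clones. WT RNA was 84.6 and 85.1 CPM. KO1 held 68.2 and 64.5 CPM, KO2 46.0 and 53.2, and KO3 95.5 and 94.97. KO1 and KO2 libraries were below and KO3 libraries above both WT libraries. RNA fell by 0.35 in KO1 (SE 0.08, adjusted p = 0.0001) and by 0.77 in KO2 (SE 0.09, adjusted p = 7.41e-07) on the log2 scale, whereas the KO3 change of 0.16 (SE 0.07, adjusted p = 0.0573) missed the threshold. Footprints followed, with 148 and 145 CPM in WT cells, 87.1 and 85.7 in KO2, 178 and 177 in KO3 and 109.7 and 94.0 in KO1. The footprint changes were -0.48 (SE 0.09, adjusted p = 7.16e-05), -0.76 (SE 0.09, adjusted p = 2.85e-07) and 0.27 (SE 0.08, adjusted p = 0.0074). The KO3 rise was lost with DESeq2 (adjusted p = 0.138) and with libraries thinned to equal depth (adjusted p = 0.0515).

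Ccng1 (chr11:40748552-40755311, - strand, 6 exons of which 5 are coding) is linked to Mdm2, since cyclin G1 recruits a phosphatase to it. Its RNA was 349 and 339 CPM in WT cells, 359.6 and 385 in KO1, 289 and 267 in KO3 and 247 and 222 in KO2. The KO2 and KO3 libraries lay below all other libraries. RNA fell by 0.55 in KO2 (SE 0.06, adjusted p = 3.92e-07) and by 0.31 in KO3 (SE 0.05, adjusted p = 1.35e-06). The KO1 change of 0.11 (SE 0.05, adjusted p = 0.0556) did not pass. Footprints showed a wider span, with 64.9 and 92.7 CPM in WT cells, 38.9 and 42.3 in KO2, 53.7 and 76.8 in KO3 and 91.5 and 113 in KO1. They fell by 0.93 in KO2 (SE 0.14, adjusted p = 1.58e-05), or to 0.526 times WT. The KO1 rise of 0.33 (SE 0.12, adjusted p = 0.0372) came with overlapping replicates and was 0.07 without WT replicate 1 (adjusted p = 0.834), 0.24 without KO1 replicate 2 (adjusted p = 0.114), 0.57 without WT replicate 2 and 0.55 without KO1 replicate 1. That call was also lost with DESeq2 (adjusted p = 0.658) and with all lines in 1 fit (adjusted p = 0.0528). The KO3 change of -0.27 (SE 0.13) was not called, but it was without WT replicate 1 (-0.54, adjusted p = 0.00115) and without KO3 replicate 2 (-0.53, adjusted p = 0.000905).

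Bax and Bbc3 act in apoptosis. Bax (chr7:45461697-45466898, - strand), which permeabilizes the outer mitochondrial membrane, held 185 CPM of RNA in both WT libraries, 169 and 174 in KO1, 181 and 172 in KO3 and 163 and 167 in KO2. All clone libraries were below WT, but none of the changes (-0.11, -0.16 and -0.07, SE 0.06 each) passed the test. Bax footprints were 96.9 and 92.3 CPM in WT cells, 86.0 and 78.7 in KO1, 104 and 101 in KO3 and 76.5 and 91.4 in KO2. KO3 lay above and the other clones below both WT libraries, with changes of -0.19 (KO1), -0.19 (KO2) and 0.10 (KO3), SE 0.09 to 0.10, that did not pass. Bbc3 (chr7:16308393-16318205, + strand), the BH3-only protein PUMA, was at 6.82 and 6.81 CPM in WT RNA, 4.96 and 7.73 in KO2, 9.68 and 9.67 in KO3 and 4.25 and 5.82 in KO1. The KO3 libraries, with 122 and 118 counts against 75 and 80 in WT cells, were the highest. The changes in KO1 (-0.44, SE 0.24) and KO2 (-0.09, SE 0.23) did not pass. The KO3 rise of 0.50 (SE 0.19, adjusted p = 0.028) was lost when any 1 of its 4 libraries was left out (adjusted p = 0.103 and 0.12 without WT replicates 1 and 2, 0.0749 and 0.0728 without KO3 replicates 1 and 2) with DESeq2 (adjusted p = 0.166) and with all lines in 1 fit (adjusted p = 0.0509). Bbc3 footprints numbered 19 and 8 in WT cells and 35 and 32 in KO3, a log2 change of 1.02 (SE 0.32, adjusted p = 0.0133). That call was likewise lost without WT replicate 2 (0.79, adjusted p = 0.121), without KO3 replicate 2 (0.92, adjusted p = 0.0792) and with DESeq2 (adjusted p = 0.222).

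Phlda3, which competes with the kinase Akt for membrane lipids (chr1:135766119-135769136, + strand), moved in opposite directions. RNA was 103 and 94.8 CPM in WT cells, 154 and 122 in KO1, 65.4 and 67.2 in KO3 and 79.1 and 91.0 in KO2. KO1 was above and the other clones were below both WT libraries. The RNA change was 0.48 in KO1 (SE 0.07, adjusted p = 3.35e-07), -0.58 in KO3 (SE 0.08, adjusted p = 6.84e-10) and -0.21 in KO2 (SE 0.08, adjusted p = 0.0674), the last not called. Without KO1 replicate 1 the KO1 rise was 0.30 and still called (adjusted p = 0.00189). Footprints, at 84.0 and 98.1 CPM in WT cells, were 86.6 and 91.7 in KO2, 70.5 and 74.0 in KO3 and 136 and 106 in KO1. They rose by 0.49 in KO1 (SE 0.11, adjusted p = 0.000274) and fell by 0.33 in KO3 (SE 0.10, adjusted p = 0.0103). The KO1 footprint call was lost without KO1 replicate 1 (0.23, adjusted p = 0.391), without WT replicate 1 (0.37, adjusted p = 0.0546) and with DESeq2 (adjusted p = 0.122). The KO3 footprint call was lost without WT replicate 2 (-0.23, adjusted p = 0.169), without KO3 replicate 1 (-0.29, adjusted p = 0.084), with DESeq2 (adjusted p = 0.193) and with thinned libraries (adjusted p = 0.168).

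Trp53inp1 (chr4:11156431-11174379, + strand), a stress protein that acts in autophagy and cell death, was, with Mdm2, called lower in RNA of all 3 clones. RNA was 33.3 and 32.6 CPM in WT cells, 23.7 and 24.0 in KO1, 18.4 and 17.5 in KO3 and 17.6 and 24.5 in KO2. Every clone library was below both WT libraries. RNA fell by 0.46 in KO1 (SE 0.11, adjusted p = 0.00049), by 0.64 in KO2 (SE 0.13, adjusted p = 0.00105) and by 0.88 in KO3 (SE 0.12, adjusted p = 1.74e-09), the last to 0.545 times WT. Footprints were also below WT (37.8 and 34.3 CPM) in every clone library, at 24.3 and 27.9 in KO2, 20.5 and 21.6 in KO3 and 20.3 and 30.8 in KO1. The footprint changes were -0.70 (SE 0.18, adjusted p = 0.00183), -0.49 (SE 0.15, adjusted p = 0.0364) and -0.80 (SE 0.16, adjusted p = 6.46e-05). The KO1 call was lost without KO1 replicate 1 (-0.25, adjusted p = 0.618), without WT replicate 1 (-0.60, adjusted p = 0.0655), with DESeq2 (adjusted p = 0.324) and with thinned libraries (adjusted p = 0.145). The KO2 call was lost without WT replicate 1 (-0.41, adjusted p = 0.299), without KO2 replicate 1 (-0.38, adjusted p = 0.238), with DESeq2 (adjusted p = 0.506) and with thinned libraries (adjusted p = 0.472), so that KO3 alone held under each left-out library.

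Zmat3 and Sesn1 complete the group. Zmat3 (chr3:32334792-32366014, - strand), an RNA-binding zinc finger protein that affects splicing, had 107 and 101 CPM of RNA in WT cells, 123 and 122 in KO1, 96.6 and 96.5 in KO3 and 82.3 and 92.0 in KO2. KO1 libraries were the highest and KO2 libraries the lowest. RNA rose by 0.23 in KO1 (SE 0.07, adjusted p = 0.00314) and fell by 0.25 in KO2 (SE 0.08, adjusted p = 0.0206). The KO1 call was lost without WT replicate 2 (0.19, adjusted p = 0.0837). The KO2 call was lost with DESeq2 (adjusted p = 0.0826), without WT replicate 1 (-0.21, adjusted p = 0.199), without WT replicate 2 (-0.29, adjusted p = 0.0537) and without KO2 replicate 1 (-0.18, adjusted p = 0.119). Zmat3 footprints, 59.9 and 63.3 CPM in WT cells, were 56.2 and 55.1 in KO2, 62.9 and 69.9 in KO3 and 84.4 and 83.8 in KO1. Only the KO1 rise was called (0.45, SE 0.11, adjusted p = 0.00164), and it was lost without WT replicate 1 (0.41, adjusted p = 0.064), without KO1 replicate 1 (0.44, adjusted p = 0.0789), with DESeq2 (adjusted p = 0.166) and with thinned libraries (0.19, adjusted p = 0.495). Sesn1 (chr10:41809935-41908424, + strand), which restrains the growth kinase mTORC1, was too low to settle. Its RNA was 6.37 and 6.13 CPM in WT cells and 5.43 to 9.26 in the clones, and the RNA changes of 0.22 (SE 0.22), -0.02 (SE 0.22) and 0.32 (SE 0.21) did not pass. Sesn1 footprints numbered 5 to 36 per library, and their changes of -0.44 (SE 0.36), 0.29 (SE 0.30) and 0.04 (SE 0.31) did not pass either.

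**Figure D3:**
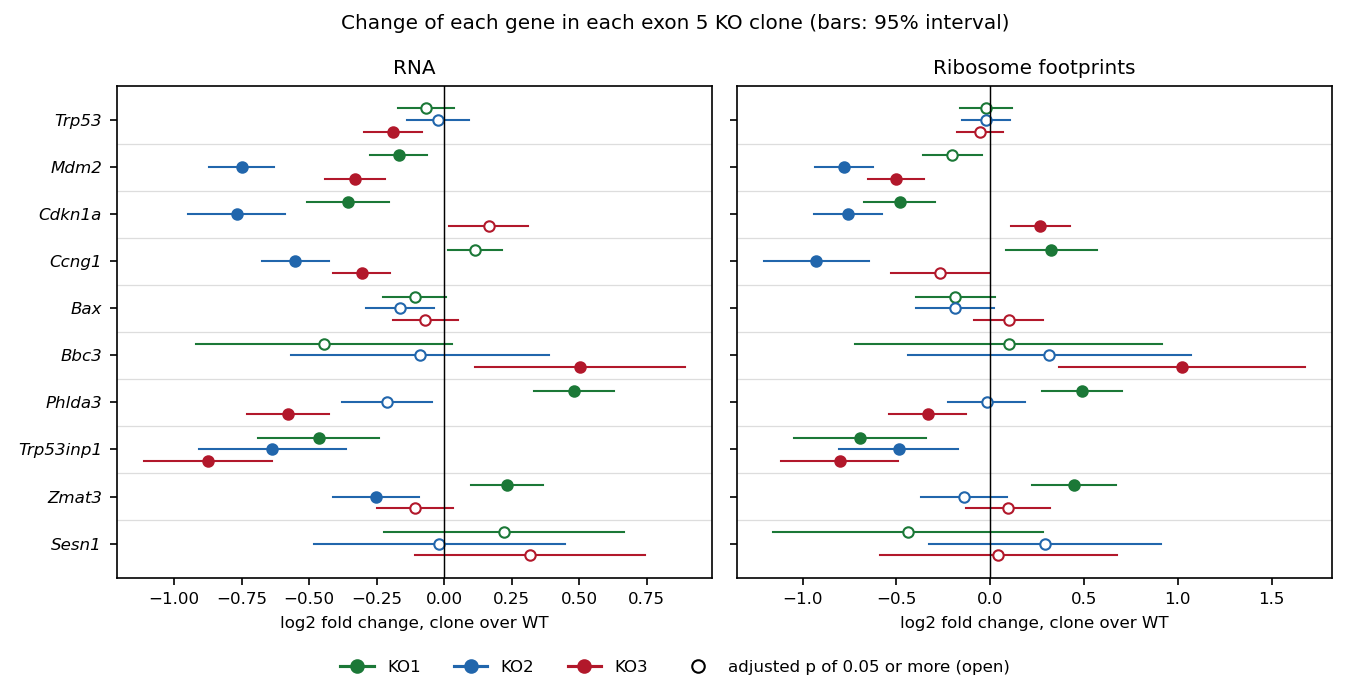
Log2 change of RNA (left) and footprints (right) of each gene in KO1, KO2 and KO3 against WT, with 95% intervals. Filled points passed an adjusted p of 0.05 and open points did not. In KO2 no point passed on the right of 0, and Mdm2, Cdkn1a and Ccng1 lay between -0.93 and -0.55 in both panels.

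Whether the clones differ from each other was tested directly, in 1 fit of all 8 libraries of an assay. RNA differed between clones for 8 of the 10 genes (74.0% of all genes did), with Phlda3 (adjusted p = 8.36e-13), Cdkn1a (7.45e-12), Ccng1 (1.69e-11) and Mdm2 (2.46e-10) ahead, and not for Bax and Sesn1. The call for Trp53 (adjusted p = 0.0313) was lost when WT replicate 2 (0.0523), KO2 replicate 1 (0.0503), KO3 replicate 1 (0.0582) or KO3 replicate 2 (0.236) was left out. That for Trp53inp1 (adjusted p = 0.0231) was lost without KO1 replicate 1 (0.0602), KO1 replicate 2 (0.0694), KO3 replicate 1 (0.0566) or KO3 replicate 2 (0.114). KO1 and KO2 were made with the same pair of guides. Between them, 5 of the 10 genes had higher RNA in KO1 than in KO2 (50.7% of all genes were called, 23.8% as higher). These were Phlda3 (log2 difference 0.69, SE 0.09), Ccng1 (0.67, SE 0.06), Mdm2 (0.59, SE 0.06), Zmat3 (0.49, SE 0.07) and Cdkn1a (0.42, SE 0.09), and all of them were called without each library of KO1 or KO2 as well. The other 5 genes did not pass, with 95% intervals of -0.16 to 0.07 for Trp53 and -0.07 to 0.18 for Bax. KO3 exceeded KO2 in RNA of Cdkn1a by 0.94 (SE 0.08, adjusted p = 4.18e-12), or 1.91 times, and of Mdm2 by 0.42 (SE 0.06, adjusted p = 1.85e-07). KO3 was below KO1 for Phlda3 by a log2 difference of -1.06 (SE 0.09, adjusted p = 5.33e-13), or 0.481 times KO1. In all, 7 of the 10 genes differed in RNA between KO3 and KO1 (60.1% of all genes did) and 6 between KO3 and KO2 (50.9%). Some of these calls rested on single libraries. Mdm2 in KO3 against KO1 (-0.16) was lost without KO3 replicate 1 (adjusted p = 0.111) or KO1 replicate 1 (0.127), and Trp53inp1 (-0.41) without KO3 replicate 2 (0.0579). Against KO2, Bbc3 (0.59) was lost without KO3 replicate 1 (0.0631), KO3 replicate 2 (0.0614) or KO2 replicate 1 (0.31, adjusted p = 0.301), and Trp53 (-0.16) without KO3 replicate 2 (0.138) or KO2 replicate 1 (0.0802).

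By footprints, 5 of the 10 genes were called against WT in KO1 (26.9% of all genes were called), 4 in KO2, all lower (11.7% were called and 4.99% called lower), and 5 in KO3 (30.6% were called). Replicates did not overlap WT for 6 genes in KO1 (59.0% of all genes), 6 in KO2 (52.3%) and 7 in KO3 (63.4%). Median footprint changes of the 10 genes were -0.10, -0.16 and -0.01, beside 0.00 for all genes. The count in KO1 was 1 without WT replicate 1 and 2 without KO1 replicate 1, and that in KO3 was 3 without WT replicate 2. In KO2, Mdm2, Cdkn1a, Ccng1 and Trp53inp1 were called lower in both assays. RNA and footprints came from the same lysates, so that these are not separate samples. Between clones, footprints differed for 7 of the 10 genes (59.5% of all genes did), and not for Trp53, Trp53inp1 and Sesn1. By pairs, 5 genes differed between KO1 and KO2 (36.2% of all genes), 7 between KO3 and KO1 (46.9%) and 5 between KO3 and KO2 (38.5%). Without 1 replicate these counts went down to 3 (without KO1 replicate 1), 3 (without KO3 replicate 1, or 4 without KO1 replicate 1) and 3 (without KO3 replicate 1, KO3 replicate 2 or KO2 replicate 1). Ccng1 footprints were 2.4 times as high in KO1 as in KO2 (log2 difference 1.26, SE 0.14, adjusted p = 1.63e-09), and Cdkn1a footprints 2.05 times as high in KO3 as in KO2 (1.04, SE 0.09, adjusted p = 1.58e-13), and both calls held without each library of the 2 clones compared. The calls for Bax (adjusted p = 0.00985) and Bbc3 (adjusted p = 0.0258) were the weakest: Bax was lost without KO3 replicate 1 (0.105), and Bbc3 without KO1 replicate 2 (0.056), KO3 replicate 1 (0.065) or KO3 replicate 2 (0.163).

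**Figure D4:**
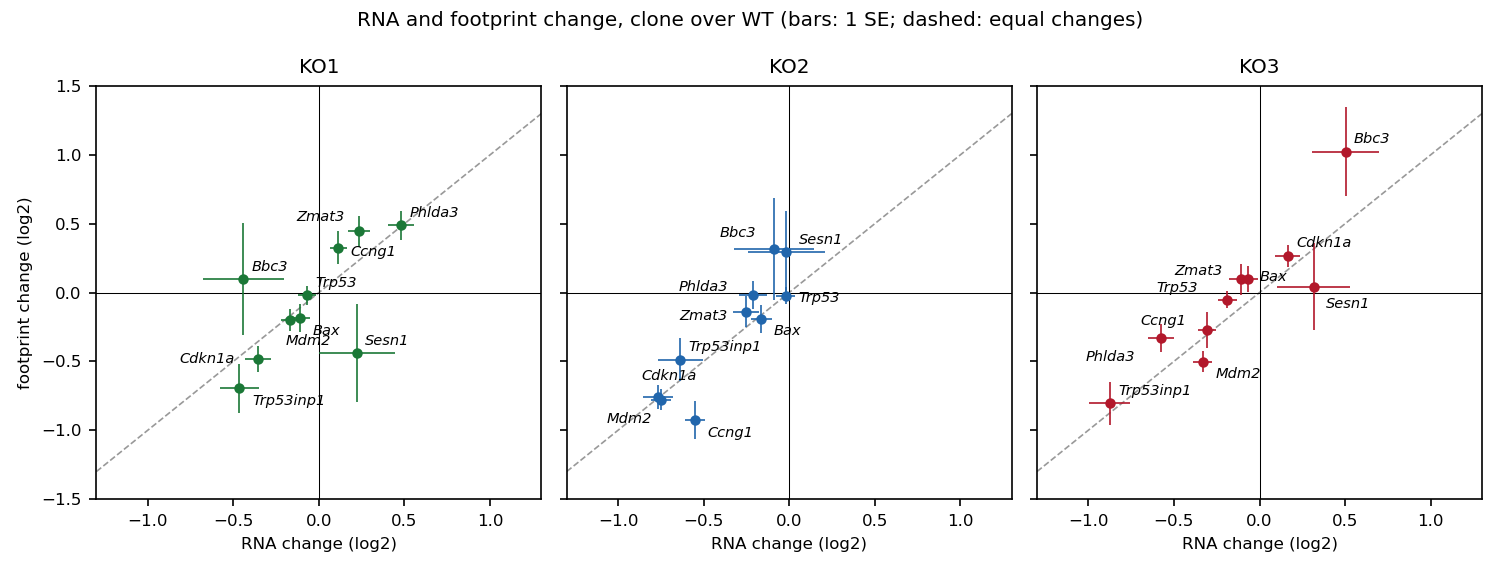
RNA change (horizontal) and footprint change (vertical) of the 10 genes against WT, both as log2, in 1 panel per clone. Bars are 1 SE and the dashed line marks equal changes. In KO2 Mdm2, Cdkn1a, Ccng1 and Trp53inp1 lay in the lower left, and Bbc3 in KO3 was highest on both axes.

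TE of these genes was not detectably changed. edgeR called 0 of the 10 in each clone, where 0.0942% (KO1), 0.0173% (KO2) and 0.104% (KO3) of all genes were called, and DESeq2 called 0 in each clone too. At an unadjusted p under 0.05, KO2 had 1 of the 10 genes, Ccng1, and the other clones had 0, while the share of all genes was 7.07% (KO1), 4.28% (KO2) and 6.07% (KO3). The intervals were narrow for abundant genes: for Trp53 -0.11 to 0.23 in KO1, -0.17 to 0.17 in KO2 and -0.02 to 0.30 in KO3, and for Mdm2 -0.21 to 0.16, -0.22 to 0.17 and -0.35 to 0.02. For Cdkn1a they were -0.36 to 0.12, -0.24 to 0.26 and -0.10 to 0.31. For Bbc3 (KO1 -0.47 to 1.56) and Sesn1 (KO1 -1.55 to 0.23) they were too wide to show a change of 1 on the log2 scale. In KO3, 8 of the 10 TE changes were above 0, with a median of 0.12 beside -0.01 for all genes. In KO1 5 and in KO2 6 were above 0, with medians of -0.002 and 0.06 beside 0.02 and 0.0009. A shift of the 10 genes as a set was not tested.

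Ccng1 was the exception at the edge of the test. Its TE was -2.43 and -1.87 in WT lysates, -1.98 and -1.77 in KO1, -2.43 and -1.80 in KO3 and -2.67 and -2.39 in KO2, so that KO2 overlapped WT and KO3 but not KO1. The KO2 change was -0.38 (SE 0.15, unadjusted p = 0.02, 95% interval -0.69 to -0.06) and was not called after adjustment. The difference between clones had an adjusted p of 0.129. It was the 1 gene of the 10 with an unadjusted p under 0.05 in that test, which 10.3% of all genes reached, while 1.03% were called. RNA was taken from the Ribo-seq lysate, and the 2 assays were paired by the replicate number in the labels. With the lysate so paired as a block, the adjusted p for the difference between clones was 0.000328. It was 0.0326 with the replicate number as a block, 0.0333 without KO3 replicate 1 and 0.601 without KO2 replicate 1. No other of the 10 genes was called under either block.

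The genes most like Trp53 and Cdkn1a in RNA were looked up among 11754 genes, by the root mean square difference over the 8 RNA-seq libraries of log2 CPM centred on the WT mean. For Trp53 they were Exosc1 (0.0374), Adgra3 (0.0379) and Sfr1 (0.0401), beside a median of 0.290 over all genes. For Cdkn1a they were Lims1 (0.0639), Sdhaf1 (0.128) and Pcbd1 (0.141), beside a median of 0.507. On that scale Lims1 stood at -0.42, -0.75 and 0.15 in KO1, KO2 and KO3, where Cdkn1a stood at -0.35, -0.77 and 0.17. None of the other 9 genes was among the 3 nearest to either.

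Other known p53 targets were counted from 4 lists (arrest and growth, apoptosis, repair and nucleotides, metabolism and secreted proteins), of which 43 of 44 genes were tested for RNA. In KO2, 21 of the 43 were lower and 0 higher, against 8.84% lower and 11.6% higher of all genes, and their median change was -0.23 beside 0.00. In KO1, 13 were higher and 12 lower, and in KO3 9 were higher and 14 lower, against 22.1% and 24.6% of all genes in KO1 and 23.1% and 22.3% in KO3. The KO2 count was 13 lower without WT replicate 1, 16 without WT replicate 2, 20 (with 1 higher) without KO2 replicate 1, 19 without KO2 replicate 2 and 14 with DESeq2. The KO3 count of 14 lower was 7 without WT replicate 1 and 7 with DESeq2. The share of all genes called under those settings is not given here, so these changed counts cannot be set beside it. By footprints, 10 of 41 tested were lower and 1 higher in KO2, against 4.99% lower and 6.74% higher of all genes.

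The apoptosis list stood out by count in KO2. Of its 11 tested genes, 9 had lower RNA and 0 higher (median -0.40), but 4 were lower without WT replicate 1 and 6 with DESeq2. The largest fall was that of Perp, a membrane protein of cell death and adhesion, at 45.2 and 46.9 CPM in KO2 against 96.6 and 106 in WT cells (-1.14, SE 0.08). Perp was also lower in KO1 (52.6 and 49.9 CPM) and higher in KO3 (158 and 155 CPM). Fas, the death receptor, was 10.1 and 8.26 CPM in WT cells, 4.40 and 5.29 in KO2, 4.13 and 3.20 in KO3 and 17.0 and 18.3 in KO1, and it was called higher in KO1 (0.94) and lower in KO2 (-0.91) and KO3 (-1.32). In the arrest and growth list, 5 of 10 genes were lower in KO2 and 0 higher, and 3 were lower without WT replicate 1 or 2. Plk3, a stress kinase, fell the most (-0.88), while Gadd45a, which binds PCNA and cyclin-dependent kinases, led the rises in KO1 (0.69) and KO3 (0.98). The metabolism and secreted list had 6 of 15 lower in KO2, led by Dcxr (-1.04), with Gls2 (1.47) and Igfbp3 (-1.93) at the ends in KO1 and Thbs1 (0.97) and Dram1 (-1.40) in KO3. Its 5 lower genes in KO3 were 3 without WT replicate 1 or KO3 replicate 2. Of the 7 repair and nucleotide genes, 1 was lower in KO2 (Polk, -0.36), 2 were higher in KO1 (Xpc, 0.48, the larger) and 2 were lower in KO3 (Xpc, -0.33, the larger), or 0 without WT replicate 1. Beside the counts of all 4 lists, 8.84% of all genes were lower and 11.6% higher in KO2. In KO1 22.1% were higher and 24.6% lower, and in KO3 23.1% were higher and 22.3% lower. These shares are from edgeR with all libraries of a comparison, and those under the other settings are not given here.

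**Figure D5:**
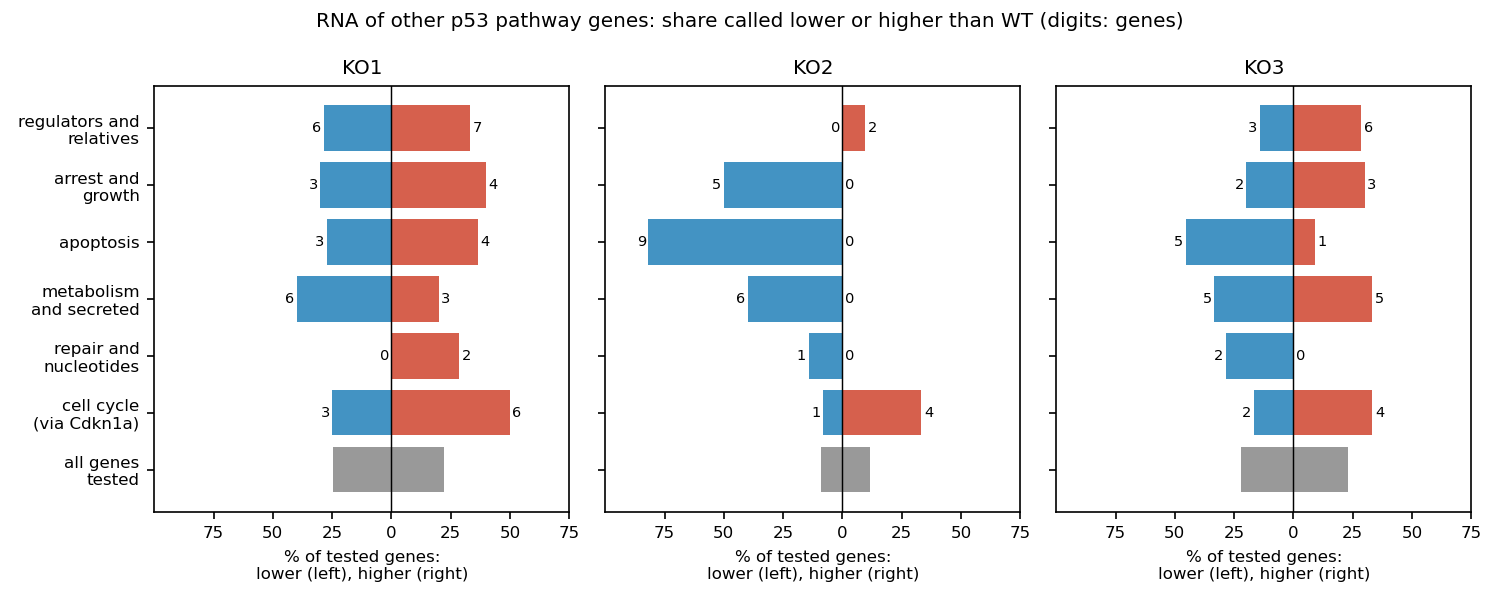
RNA of the other p53 pathway genes in 3 panels, 1 per clone. Bars give the percentage of tested genes of each list called lower (left) or higher (right) than WT, digits give the number of genes, and the grey bar gives all genes tested. In KO2 the apoptosis bar reached 9 of 11 genes on the lower side and the 4 target lists had 0 genes on the higher side.

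Genes that arrest lowers through Cdkn1a were looked at in the same way. In KO2, 4 of the 12 cell cycle genes were higher and 1 lower, in KO1 6 higher and 3 lower, and in KO3 4 higher and 2 lower. Of all genes, 11.6% were higher and 8.84% lower in KO2, 22.1% and 24.6% in KO1, and 23.1% and 22.3% in KO3. Without WT replicate 1, 1 was higher in KO2 and 2 in KO3. The share of all genes in that setting is not given here. Mcm5, a subunit of the replicative helicase, was higher in all 3 clones (0.37, 0.29 and 0.34). The changes of the list were small, from a median of 0.08 in KO3 to 0.17 in KO1. The extremes were Mybl2 (0.38) and Bub1 (-0.31) in KO1, Mcm5 and Cdk1 (-0.20) in KO2 and Cdc25c (0.56) and Foxm1 (-0.30) in KO3.

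Of 21 regulators of p53 tested, 7 were higher and 6 lower in KO1, 6 and 3 in KO3, and 2 and 0 in KO2, where the shares of all genes called were 46.7%, 45.4% and 20.4%. Without WT replicate 2 there were 4 higher in KO1 and 0 in KO2, without KO3 replicate 1 there were 3 higher in KO3, and without KO2 replicate 1 there were 2 lower in KO2. The shares of all genes in those settings are not given here. Cop1, a ubiquitin ligase for p53, was the larger of the KO2 rises (0.22), and Mdm4 (0.41) and Ep300 (-0.54) were the extremes in KO1. In KO3, Kat5 rose the most (0.33), and the largest fall was that of Cdkn2a, which encodes the Mdm2 inhibitor p19Arf and the kinase inhibitor p16Ink4a. Its RNA was 52.7 and 51.8 CPM in WT cells, 71.5 and 65.8 in KO1, 56.6 and 62.0 in KO2 and only 1.35 and 1.07 in KO3. These were 17 and 13 counts in KO3 against 579 and 608 in WT cells, a log2 change of -5.42 (SE 0.18, adjusted p = 8.23e-44, edgeR). Footprints fell by 3.53 (SE 0.21, adjusted p = 1.98e-18), from 167 and 120 counts to 18 and 12. Cdkn2a was also the only gene of these lists with a called TE change (1.88 in KO3, SE 0.38, adjusted p = 0.0196) on those few counts. Trp63 and Trp73, the relatives of Trp53, were at or near 0 (at most 8 and 2 counts in a RNA-seq library).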

How the data were processed

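Ribo-seq and RNA-seq libraries of the same lysates were analysed from the raw read counts per transcript that the authors deposited. Per the labels and methods, the authors trimmed reads with fastp (version 0.21.0), removed reads on noncoding RNA, aligned the rest to mm10 with GENCODE vM23 by STAR (version 2.7.0a) and counted A-sites on coding sequences without the first and last 5 codons. Replicates were not pooled, and a read that fits several transcripts was counted on each. The labels name polyA RNA where the protocol describes removal of ribosomal RNA. Nothing more is said of how the 2 biological replicates of a line were separated, so that p-values measure the spread between these samples.

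The column of codons counted per transcript, deposited by the authors with the counts, served for TPM. Of 67139 transcripts, 1 per gene was kept (the largest total over the 16 libraries, ties by identifier), which left 22392 genes. Cdkn1a had 4 transcripts and Zmat3 2 with equal totals. Depth limits the footprints of Bbc3 and Sesn1, and intervals cover the spread in the fit only. Gene positions came from GENCODE vM21 on GRCm38.

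Changes were tested with edgeR (version 4.0.16, R version 4.3.3), with filterByExpr, TMM factors within each assay, quasi-likelihood F-tests and Benjamini-Hochberg adjustment over all genes tested. A change was called at an adjusted p under 0.05. A clone was compared with WT over 4 libraries, TE was the interaction of line and assay over 8, and differences between clones were contrasts in 1 fit of 8 libraries of an assay or, for TE, all 16. SE is the log2 change divided by the square root of F. Alternatives were DESeq2 (version 1.42.0), its size factors, other filters and transcripts, a replicate or lysate block, thinning to the smallest library and leaving out each replicate. Scripts were tested on simulated data. Pairing of RNA-seq with Ribo-seq by lysate comes from the labels, and the correlation of the replicates' differences between the assays was 0.0591 to 0.185 over 8357 genes.

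The members and lists were chosen with earlier results of these data known. Named genes are all 10 members, of each other list the largest called RNA rise and fall per clone, and the 3 genes nearest to Trp53 and to Cdkn1a. Fas in KO2, Perp in KO1, Gadd45a in KO2, Mcm5 in KO1 and KO3, Cdkn2a in KO1 and KO2, Trp63 and Trp73 were added after their values were seen. Figures were drawn with matplotlib (version 3.10.9).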

Additional observations from a re-analysis of the deposited data

Results flagged for a closer look

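The change against WT differed between the 3 clones, by a test of that difference itself (edgeR, adjusted over all genes), for RNA of 8 of the 10 genes. The adjusted p was 8.36e-13 for Phlda3, 7.45e-12 for Cdkn1a, 1.69e-11 for Ccng1, 2.46e-10 for Mdm2 and 7.72e-07 for Zmat3. It was 0.000791 for Bbc3, 0.0231 for Trp53inp1 and 0.0313 for Trp53. For footprints the adjusted p was 8.62e-14 for Cdkn1a, 3.3e-09 for Ccng1, 2.28e-08 for Phlda3, 3.02e-07 for Mdm2 and 3.93e-05 for Zmat3, and 0.00985 for Bax and 0.0258 for Bbc3. Such differences were common, at 74.0% of all genes for RNA and 59.5% for footprints. Lines with 2 replicates could not be screened for single outlying samples.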

How the results depend on the processing

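The number of the 10 genes called for RNA stayed within 1.5 times the reported number under every alternative run. For footprints in KO1 it was 1 with DESeq2, 3 with thinned libraries and 1 to 5 without 1 replicate. In KO3 it was 2 with DESeq2, 2 with thinned libraries and 3 to 6 without 1 replicate. Between clones, leaving out 1 replicate gave 3 to 5 genes for footprints of KO1 against KO2, 3 to 6 for KO3 against KO1 and 3 to 4 for KO3 against KO2. Differences between replicates 1 and 2 correlated weakly between lines (0.0308 to 0.113). That range overlaps the one between the assays of 1 lysate (0.0591 to 0.185), so it does not settle whether replicate numbers pair the libraries. With the replicate block, 6, 7 and 7 genes were called for RNA in KO1, KO2 and KO3, and 6, 4 and 6 for footprints. The TE difference between clones was called for 1 gene, Ccng1, under the replicate block, 1 under the lysate block and 0 to 1 without 1 replicate. The share of all genes called under each setting is not given here, so these counts cannot be set beside it.

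No called change turned its sign under any alternative run, while some uncalled ones did, and the cause was not tested. Bbc3 footprints in KO1 were -0.0796 with the replicate block and -0.0862 with DESeq2, and Bax footprints in KO2 0.0598 with thinned libraries. TE of Phlda3 in KO1 was -0.0426 with the lysate block, -0.0310 with DESeq2 and -0.0504 with thinned libraries. Thinned libraries also turned TE of Bax (0.0814) and Zmat3 (-0.0496) in KO1, Bax (0.22) and Zmat3 (-0.14) in KO2, and Trp53inp1 (-0.12) and Sesn1 (0.0354) in KO3. TE of Trp53 in KO2 was 0.0011 with at least 10 counts in every library and that of Cdkn1a -0.0065 with all transcripts.

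Without 1 replicate, RNA changes in KO2 ran from -0.0555 to 0.0123 for Trp53, -0.197 to 0.129 for Sesn1 and -0.45 to 0.18 for Bbc3. Footprint changes ran from -1.37 to 0.53 for Bbc3 and -0.0942 to 0.0229 for Trp53 in KO1, from -0.144 to 0.69 for Sesn1, -0.143 to 0.0820 for Phlda3 and -0.0528 to 0.00198 for Trp53 in KO2, and from -0.39 to 0.45 for Sesn1 in KO3. TE changes in KO1 ran from -0.0699 to 0.48 for Ccng1, -0.166 to 0.171 for Phlda3, -0.0680 to 0.0107 for Mdm2, -1.16 to 1.01 for Bbc3 and -0.38 to 0.21 for Trp53inp1. In KO2 they ran from -0.14 to 0.0923 for Bax, -0.15 to 0.74 for Sesn1, -0.0126 to 0.00494 for Trp53, -0.10 to 0.125 for Cdkn1a and -0.0688 to 0.00981 for Mdm2. In KO3 they ran from -0.27 to 0.36 for Ccng1 and -0.72 to 0.165 for Sesn1. RNA of KO1 against KO2 ran from -0.62 to 0.0146 for Bbc3, -0.0980 to 0.0106 for Trp53 and -0.0364 to 0.44 for Trp53inp1, Sesn1 in KO3 against KO1 from -0.20 to 0.35 and Trp53inp1 in KO3 against KO2 from -0.46 to 0.0326. Footprints of KO1 against KO2 ran from -0.117 to 0.134 for Bax, -1.69 to 0.0232 for Bbc3, -0.0652 to 0.0627 for Trp53 and -0.35 to 0.25 for Trp53inp1. KO3 against KO1 gave -0.0773 to 0.0502 for Trp53 and -0.55 to 0.0478 for Trp53inp1, and KO3 against KO2 -0.0584 to 0.0135 for Trp53. The lysate block for the difference between clones, the alternatives for single pairs of clones and those for the other lists were chosen after seeing the data.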
